A study of Mus musculus with 8 samples.

Results

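Mouse embryonic fibroblasts were sequenced after 4 days in medium with a chemical cocktail written CFAE+6, and compared with fibroblasts kept for 4 days in fibroblast medium (the group MEF). The 4 libraries were chosen by their medium label, 2 for CFAE+6 and 2 for MEF, out of 8 libraries in the series. All cells were labelled wild type (WT) and came from embryo tissue. CFAE+6 combines 5 compounds: CHIR99021, which inhibits the kinase GSK-3, Forskolin, which activates adenylyl cyclase, AM580, an agonist of retinoic acid receptor alpha, EPZ04777 as the labels spell it, which inhibits the enzyme DOT1L, a methyltransferase of histone H3, and E-616452, which blocks the kinase of the TGF-beta type I receptor. The groups CFAE+8, in which A-83-01 replaces E-616452, and CFAE+8+MSC, which adds the CDK8 and CDK19 inhibitor MSC2530818 to CFAE+8, are used here only where they show how CFAE+6 differs. No dose, embryo age, passage or solvent control is given in the labels, and no library received 1 compound of the cocktail alone, so against MEF the contributions of the compounds cannot be told apart. Nothing says whether the 2 libraries that share a medium are independent cultures. The p-values therefore rest on the scatter among these libraries alone, and that scatter may be technical.

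Fibroblasts make and remodel the collagen-rich matrix of connective tissue, and TGF-beta drives both their matrix genes and their contractile, smooth-muscle-like genes. GSK-3 marks beta-catenin for destruction, and when the kinase is blocked beta-catenin enters the nucleus and, with TCF and LEF factors, switches on genes that include many of the pathway's own inhibitors. Retinoic acid receptors do much the same for genes that take up, bind and destroy retinoids, and cyclic AMP acts through protein kinase A on CREB. Small-molecule mixtures of this kind are used in chemical reprogramming, in which somatic cells are brought to another identity without added genes.

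Library totals were 11355164 and 11913143 counts in MEF and 11036764 and 11380982 in CFAE+6. The 10 most counted genes took 6.99% and 7.12% of counts in MEF against 4.65% and 4.72% in CFAE+6, and mitochondrial genes took 1.24% and 1.21% against 2.21% and 2.08%. Levels below are CPM, the counts of a gene scaled to a common library size, always given for replicate 1 and then replicate 2. Changes are log2 fold changes with their standard error, and adjusted p-values are those of edgeR's quasi-likelihood test with Benjamini-Hochberg adjustment over 15470 genes. CPM of different genes are not comparable as levels, because longer genes collect more reads. Where a group holds no count of a gene, the fold is a lower bound, set against 3 counts over the 2 libraries of that group. Of the genes tested, 31.6% were called higher and 31.5% lower in CFAE+6 than in MEF, 63.1% in all, with 1910 higher and 2094 lower by at least 1 log2 unit, and the median log2 change over all genes was 0.0184. Every count of list members below is to be read against those shares. The list of housekeeping genes itself had 85.0% of its 20 tested members called. A share above 63.1% therefore does not by itself set a list apart. The expression filter used all 4 groups, so a gene silent in MEF was tested only where a cocktail group held enough counts. Such a gene can be called higher but not lower, and lists with many of them lean towards rises. A gene silent in CFAE+6 can likewise only be called lower.

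**Figure D1:**
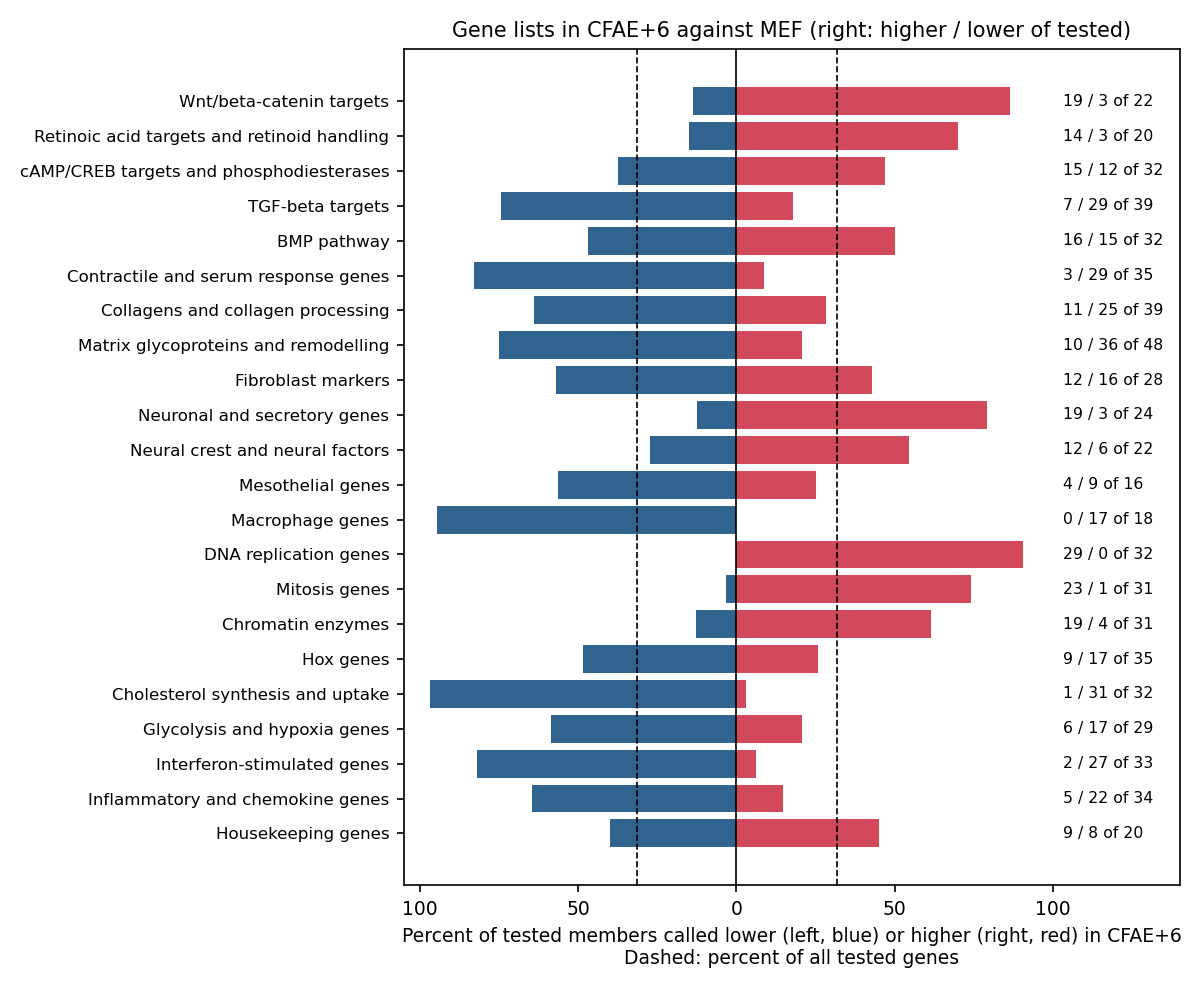
Share of the tested members of 22 gene lists that were called higher (right, red) or lower (left, blue) in CFAE+6 than in MEF at an adjusted p of 0.05, with the counts printed beside each bar. The 22 are a selection of the lists. Those not shown ran from 46.9% of tested members called (respiratory chain) to 95.8% (oxidative and amino acid stress). Dashed lines mark the shares over all tested genes, 31.6% higher and 31.5% lower; DNA replication genes lie far to the right of them (29 of 32 higher) and cholesterol and macrophage genes far to the left (31 of 32 and 17 of 18 lower).

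Among called genes with at least 10 CPM in 1 group and no overlap between the groups, several that rose most were nearly silent in MEF. Fezf2, a zinc-finger transcription factor of forebrain development (ENSMUSG00000021743, chromosome 14, 12342094 to 12348189, mm10), had no counts in MEF and stood at 40.5 and 38 CPM in CFAE+6. Calb1, the calcium-binding protein calbindin of neurons and kidney (ENSMUSG00000028222, chromosome 4, 15881264 to 15908064), was likewise at 0 and reached 23.7 and 27.1 CPM, at least 182-fold higher. Both CFAE+6 libraries were high for each gene and both MEF libraries were at 0. Nrgn, the postsynaptic protein neurogranin (ENSMUSG00000053310, chromosome 9, 37544492 to 37552904), had 3 counts over MEF and 329 and 357 CPM in CFAE+6, a ratio of 2453 (95% counting interval from 839 to 11896). Cadps, which primes secretory vesicles for release (ENSMUSG00000054423, chromosome 14, 12372563 to 12823079), was at 0.19 and 0.366 CPM in MEF and 355 and 334 CPM in CFAE+6 (log2 change 10.27 ± 0.13, adjusted p = 2.8e-31). Rspo4, a secreted amplifier of Wnt signalling, had 1 count over MEF and 106 and 109 CPM in CFAE+6, a ratio of 2308 (95% counting interval from 414 to 91201). The lack of overlap between the groups was a condition of this ranking and is not a result of it. Msx3, a homeobox gene of the dorsal neural tube, was at 0 in MEF and at 13.5 and 13.4 CPM in CFAE+6, at least 95.9-fold higher. Nts, the precursor of the neuropeptide neurotensin, was at 0 and at 16.4 and 14.1 CPM, at least 109-fold higher.

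Of the called genes with at least 10 CPM in 1 group and no overlap between the groups, the following were among those that fell most. Aspn, the small proteoglycan asporin (ENSMUSG00000021388, chromosome 13, 49544443 to 49567565), was at 81 and 75.3 CPM in MEF and 0 and 0.171 CPM in CFAE+6, where 2 counts remained over both libraries, a ratio of 899 (95% counting interval from 248 to 7429). Mgp, matrix Gla protein, an inhibitor of calcification (ENSMUSG00000030218, chromosome 6, 136872435 to 136875823), was at 132 and 119.9 CPM in MEF and 0.705 and 0.599 CPM in CFAE+6 (log2 change -7.59 ± 0.17, adjusted p = 1.4e-25). Lox, lysyl oxidase, which cross-links collagen and elastin (ENSMUSG00000024529, chromosome 18, 52516069 to 52529867), was at 4168 and 4341 CPM in MEF and 43.8 and 35.8 CPM in CFAE+6 (log2 change -6.74 ± 0.06, adjusted p = 1.2e-34). That both replicates agree for each of these genes was set by the same condition. Anxa8, a membrane-binding annexin, fell from 148 and 149 to 0.97 and 0.856 CPM, Msln, the mesothelial surface protein mesothelin, from 98.5 and 104 to 0.793 and 1.63 CPM, and Prelp, a leucine-rich matrix proteoglycan, from 95 and 101 to 1.06 and 1.11 CPM. Olr1, a scavenger receptor for oxidised lipoprotein, fell from 29.6 and 28.9 to 0.441 and 0.514 CPM, and Lgals9, a galectin of immune and epithelial cells, from 53.7 and 55.3 to 0.881 and 0.942 CPM. C1ra, a protease of the complement cascade, was at 19.5 and 20.4 CPM in MEF and 0.176 and 0.0856 CPM in CFAE+6, and Mmp12, the macrophage metalloelastase, at 22.7 and 18.3 CPM in MEF and 0.0881 and 0.257 CPM in CFAE+6.

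Wnt target genes were called higher for 19 of 22 tested members and lower for 3, with a median log2 change of 2.11. Among the inhibitors that the pathway induces, Axin2, part of the complex that destroys beta-catenin (ENSMUSG00000000142, chromosome 11, 108920349 to 108950783), was at 9.22 and 9.07 CPM in MEF and 356 and 375 CPM in CFAE+6 (log2 change 5.32 ± 0.07, adjusted p = 1.9e-30). Nkd1, which binds Dishevelled, was at 6.65 and 6.78 CPM in MEF and 539 and 594 CPM in CFAE+6 (log2 change 6.40 ± 0.08, adjusted p = 5e-31). Apcdd1, a membrane-bound Wnt inhibitor (ENSMUSG00000071847, chromosome 18, 62922327 to 62953195), was at 37.3 and 36.6 CPM in MEF and 2548 and 2583 CPM in CFAE+6 (log2 change 6.12 ± 0.05, adjusted p = 2.4e-36). The 3 genes were low in both MEF libraries and high in both CFAE+6 libraries. Notum, an enzyme that removes the lipid from Wnt proteins, rose from 0.95 and 0.55 to 357 and 380.5 CPM, and Wif1, a secreted Wnt-binding inhibitor, from 0.95 and 0.641 to 108 and 116 CPM. Dkk1, a ligand of the LRP co-receptors that blocks Wnt, had no counts in MEF and 32 and 31.2 CPM in CFAE+6. The transcription factors of the pathway rose as well, Lef1 from 1.43 and 1.01 to 108 and 115 CPM (log2 change 6.52 ± 0.13, adjusted p = 2.4e-26) and Tcf7 from 3.71 and 2.66 to 134 and 123 CPM (log2 change 5.34 ± 0.11, adjusted p = 5.7e-26). Tnfrsf19, a receptor also called Troy, rose from 2.66 and 2.02 to 372 and 359 CPM. The exons of Notum overlap those of Notumos and Myadml2os over 38.1% of their length, so the values of these 3 genes are uncertain, as are those of Lef1 (13.7% overlap) and Ccnd1 (23.4%).

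Against the direction of the list, 3 well-known Wnt targets fell. Lgr5, the R-spondin receptor that marks stem cells of the gut and hair follicle, was at 77.3 and 80.1 CPM in MEF and 16.6 and 15.6 CPM in CFAE+6 (log2 change -2.29 ± 0.10, adjusted p = 3.7e-18). Cd44, the hyaluronan receptor, was at 437 and 429 CPM in MEF and 118 and 107 CPM in CFAE+6 (log2 change -1.95 ± 0.06, adjusted p = 1.3e-22). Myc, the growth-promoting transcription factor, was at 83.2 and 84.8 CPM in MEF and 43.3 and 43 CPM in CFAE+6 (log2 change -0.96 ± 0.07, adjusted p = 2.6e-12). All 3 were lower in both CFAE+6 libraries than in either MEF library. T, Cdx1, Cdx2 and Fgf20 had too few counts to be tested.

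The promoters of this list's members with the smallest adjusted p that hold the core recognition sequence of TCF and LEF factors are shown, because they put the letters beside the genes that rose. RefSeq promoter windows (GRCm38.p6, 250 bases before to 50 after a gene's start) were found for 16 of the 26 listed genes. The letters CTTTGAT, read on both strands, occur in 2 of their 23 windows (8.70%) and in 3.73% of all 32851 windows. The windows belong to Sp5, a transcription factor gene (chr2:70474673-70474922, plus strand, the 250 bases before its start), and Tnfrsf19 (chr14:61038172-61038201, minus strand, 30 bases around the match, which overlap an annotated exon). Capitals mark the match, which starts 104 bases before the start of Sp5 and 202 bases before that of Tnfrsf19, where it reads in reverse. Sp5 had 1 count over MEF and 78.7 and 74.7 CPM in CFAE+6.
Sp5: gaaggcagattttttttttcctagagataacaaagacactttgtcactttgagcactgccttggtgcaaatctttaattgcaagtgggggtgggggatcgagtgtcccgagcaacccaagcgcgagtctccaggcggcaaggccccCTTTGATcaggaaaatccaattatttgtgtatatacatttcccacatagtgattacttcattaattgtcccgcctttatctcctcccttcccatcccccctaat
Tnfrsf19: cctgaatgggggATCAAAGtgacaaactag
A match is a description of the letters and not a measured site of binding, and no test was made of the difference between the shares.

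**Figure D2:**
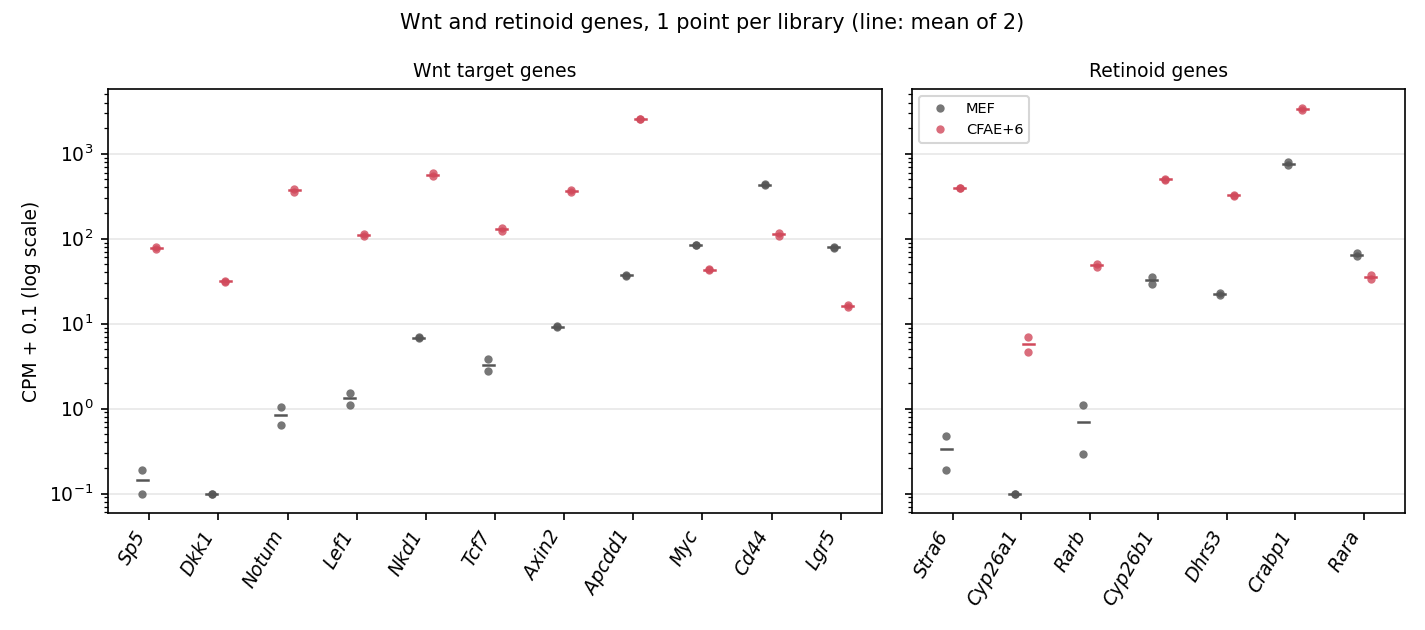
CPM plus 0.1 on a log axis for 11 Wnt target genes and 7 retinoid genes in the 2 MEF libraries (grey) and the 2 CFAE+6 libraries (red), with a line at the mean of each pair. No pair of groups overlaps; Myc, Cd44, Lgr5 and Rara are lower in CFAE+6 and the others higher.

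Genes for Wnt ligands, receptors and secreted antagonists went both ways, with 20 of 38 tested members higher, 15 lower and a median log2 change of 0.30. Among the ligands, Wnt2 rose from 2.28 and 3.76 to 29.9 and 29.8 CPM, Wnt2b from 11.1 and 11 to 71 and 65.3 CPM and Wnt5a from 169 and 174 to 329 and 306 CPM. Wnt10b fell from 5.61 and 5.59 to 1.15 and 2.31 CPM, and Wnt9a from 22.9 and 23.5 to 7.32 and 9.24 CPM. Among the receptors, Fzd10 was at 0.76 and 0.916 CPM in MEF and 61.9 and 64.1 CPM in CFAE+6 (log2 change 6.23 ± 0.16, adjusted p = 1.2e-23), and the receptor tyrosine kinases Ror1 and Ror2, which bind Wnt5a, also rose, Ror1 from 13 and 13.3 to 72.7 and 68.4 CPM and Ror2 from 52.6 and 52.1 to 193 and 197 CPM. The frizzled receptor Fzd4 fell from 15.8 and 15.7 to 2.56 and 3.59 CPM, and Fzd2 from 228 and 238 to 64.8 and 65.4 CPM, so frizzled genes moved in both directions. Of the R-spondins, which stabilise Wnt receptors, Rspo1 rose from 3.33 and 3.21 to 21.7 and 23.5 CPM and Rspo2 fell from 28.2 and 27.8 to 1.23 and 1.88 CPM (log2 change -4.17 ± 0.23, adjusted p = 8.3e-16). Of the secreted frizzled-related antagonists, Sfrp5 was at 0 in MEF and at 9.96 and 14.1 CPM in CFAE+6, while Sfrp4 fell from 32.1 and 31.7 to 2.38 and 3 CPM. Wls, the carrier that all Wnt ligands need for secretion, fell from 498 and 495 to 239 and 238 CPM.

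Retinoid genes were called higher for 14 of 20 tested members and lower for 3, with a median log2 change of 1.01. Stra6, the cell-surface receptor for retinol-binding protein (ENSMUSG00000032327, chromosome 9, 58063788 to 58153996), was at 0.38 and 0.0916 CPM in MEF and 389.8 and 389 CPM in CFAE+6 (log2 change 10.71 ± 0.13, adjusted p = 1.9e-31). Rarb, the beta receptor and a direct target of retinoic acid (ENSMUSG00000017491, chromosome 14, 16430839 to 16819156), was at 0.19 and 1.01 CPM in MEF and 46.7 and 49.8 CPM in CFAE+6 (log2 change 6.32 ± 0.23, adjusted p = 2.7e-20). Its exons overlap other genes over 38.4% of their length, and its value is uncertain to that extent. Of the enzymes that destroy retinoic acid, Cyp26b1 was at 35.7 and 28.9 CPM in MEF and 491 and 503 CPM in CFAE+6 (log2 change 3.94 ± 0.07, adjusted p = 2e-28), and Cyp26a1 was at 0 in MEF and 6.79 and 4.54 CPM in CFAE+6, at least 40.3-fold higher. Both Cyp26 genes were higher in each CFAE+6 library. Dhrs3, which turns retinal back into retinol, rose from 21.9 and 22.8 to 318 and 326 CPM. The binding protein Crabp1 rose from 791 and 729 to 3298 and 3422 CPM (log2 change 2.14 ± 0.04, adjusted p = 2.4e-27), and Crabp2 from 37.2 and 35.2 to 44.1 and 44.3 CPM, a call lost without MEF replicate 2 (adjusted p = 0.06). Of the enzymes that make retinoic acid, Aldh1a2 rose from 6.75 and 6.96 to 44.4 and 41.3 CPM and Aldh1a1 from 2.85 and 1.83 to 11.4 and 11.4 CPM. Rara, which codes for the receptor that AM580 activates, fell from 62.8 and 66.9 to 33.8 and 37.4 CPM (log2 change -0.87 ± 0.09, adjusted p = 7e-10), and Rarg, at 147 and 153 CPM in MEF and 152 and 149 CPM in CFAE+6, did not pass the test (adjusted p = 0.94).

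Retinoic acid receptors bind a direct repeat of a short half-site. Both strands were searched for 2 half-sites, each GTTCA or GGTCA, in the same direction with 6 bases between them, letters that do not overlap the Wnt motif. A match occurs in 2 of 32 windows of the 18 listed genes with a window (6.25%) and in 0.247% of all windows. Those windows belong to Rarb (chr14:16575506-16575535, minus strand) and Cyp26a1 (chr19:37697769-37697798, plus strand), 2 of the genes that rose from near 0. Each is printed as 30 bases around the match, since exons of the annotation cover it, with the match in capitals.
Rarb: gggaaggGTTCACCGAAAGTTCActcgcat
Cyp26a1: ttaaagaTGAACTTTGGGTGAACtaatttg
The match starts 52 bases before the start of Rarb and 32 bases before that of Cyp26a1, where it reads in reverse. Here too a match is not a measured site of binding, and the difference between the shares was not tested.

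Genes known as targets of cyclic AMP and CREB, with the phosphodiesterases that break cyclic AMP down, were called higher for 15 of 32 tested members and lower for 12, with a median log2 change of 0.10. The phosphodiesterases Pde4d, Pde3b and Pde7b rose, Pde4d from 29.8 and 33.7 to 182 and 189 CPM (log2 change 2.54 ± 0.07, adjusted p = 1.5e-23), Pde3b from 10.8 and 10.6 to 63.8 and 57.2 CPM and Pde7b from 10.8 and 12.4 to 61.2 and 62.9 CPM. Pde1a, which is activated by calcium and calmodulin, fell from 11.9 and 10.8 to 1.67 and 1.88 CPM. Areg, the EGF-receptor ligand amphiregulin, was at 0.76 and 1.19 CPM in MEF and 32.9 and 33.8 CPM in CFAE+6 (log2 change 5.09 ± 0.21, adjusted p = 1.1e-18). Crem, a feedback repressor of CREB, rose from 12.5 and 11.9 to 39 and 33.9 CPM, and Sik1, a kinase that restrains CREB coactivators, from 25.7 and 28.6 to 55 and 60.1 CPM. Of the immediate early genes, Fos fell from 42.9 and 48.2 to 18.4 and 16.9 CPM and Nr4a1 from 126 and 136 to 70.1 and 72.3 CPM, while Nr4a2, a relative of Nr4a1, rose from 12.8 and 14.1 to 22.8 and 24 CPM. Bdnf, a neurotrophin gene with a CREB-bound promoter, fell from 72.7 and 74.3 to 20.1 and 22.4 CPM. Sst, the somatostatin gene in which the CREB site was first described, was at 0 in MEF and 2.03 and 3.17 CPM in CFAE+6.

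Of 17 tested genes for the proteins the compounds act on and their close partners, 8 were higher and 7 lower, or 4 lower without MEF replicate 2 or without CFAE+6 replicate 1. The adenylyl cyclase genes diverged. Adcy1, a calmodulin-stimulated form, was at 10.9 and 10.8 CPM in MEF and 138 and 129.8 CPM in CFAE+6 (log2 change 3.62 ± 0.08, adjusted p = 5.2e-25), and Adcy5 rose from 12.2 and 8.89 to 37.7 and 37.1 CPM. Adcy4 fell from 14.2 and 16.1 to 4.58 and 1.8 CPM, and Adcy7 from 36 and 41.1 to 19.1 and 16.8 CPM. Dot1l rose from 104 and 105 to 132 and 134 CPM and Mllt3, a reader protein that brings DOT1L to chromatin, from 29.9 and 32.5 to 166 and 164 CPM (log2 change 2.40 ± 0.07, adjusted p = 2.1e-22). Tgfbr1, the receptor E-616452 blocks, fell from 60.2 and 65.8 to 53.3 and 55.7 CPM, a small change (log2 change -0.21 ± 0.08, adjusted p = 0.021) that lost its call with DESeq2 (adjusted p = 0.073), with upper-quartile scaling (0.064), without MEF replicate 2 (0.19) and without CFAE+6 replicate 1 (0.13). Gsk3b, at 159 and 159 CPM in MEF and 156 and 149 CPM in CFAE+6, did not pass the test (adjusted p = 0.35). The Hox genes and their cofactors, some of which depend on DOT1L in leukaemia, showed 9 of 35 tested members higher and 17 lower, with a median log2 change of -0.34. The largest rise was Hoxc5, from 20.8 and 22.3 to 76.1 and 82.7 CPM (log2 change 1.88 ± 0.08, adjusted p = 6.6e-18), and Meis2 rose from 63.4 and 63.8 to 141 and 130.2 CPM. Hoxa7 fell from 36.8 and 36 to 10.3 and 11.3 CPM, and Hoxa6 from 6.27 and 8.15 to 2.29 and 1.8 CPM. Neighbouring Hox genes share overlapping transcripts (20.4% for Hoxa7), and their values are uncertain to that extent.

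TGF-beta target genes were called lower for 29 of 39 tested members and higher for 7, with a median log2 change of -0.85. Ctgf, a matricellular growth factor, was at 602 and 604 CPM in MEF and 17.3 and 18 CPM in CFAE+6 (log2 change -5.10 ± 0.07, adjusted p = 6.1e-31, 23.2% exon overlap). Thbs1, thrombospondin, which can release TGF-beta from its latent form (ENSMUSG00000040152, chromosome 2, 118111876 to 118127133), was at 11356 and 11974 CPM in MEF and 649 and 621 CPM in CFAE+6 (log2 change -4.20 ± 0.04, adjusted p = 1e-34). The levels in MEF were far above those in CFAE+6 in both replicates of each gene. Smad7, the inhibitory SMAD and a feedback target, fell less, from 86.8 and 96.2 to 57.4 and 56.9 CPM (log2 change -0.68 ± 0.07, adjusted p = 1.1e-09). Of the ligands, Tgfb1 fell from 92.6 and 91.7 to 51 and 51.2 CPM and Tgfb3 from 233 and 232 to 83.3 and 86.1 CPM, and of the receptors Tgfbr2 fell from 514 and 514 to 239.9 and 241 CPM. Tgfb2 moved the other way, from 72.1 and 76.9 to 365 and 359 CPM (log2 change 2.28 ± 0.05, adjusted p = 8.5e-25). Tgfbi, a secreted protein named for its induction by TGF-beta, rose from 192 and 186 to 1021 and 1044 CPM (log2 change 2.45 ± 0.04, adjusted p = 4.2e-28), and Igfbp3, an IGF-binding protein, from 284 and 289.7 to 1519 and 1484 CPM. Snai1, a repressor of epithelial genes, rose from 85.1 and 87.8 to 167 and 169 CPM. Postn, the matricellular protein periostin, fell little, from 354 and 351 to 317 and 312 CPM (log2 change -0.16 ± 0.05, adjusted p = 0.0041).

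The BMP pathway, a related branch that signals through other receptors, was called higher for 16 of 32 tested members and lower for 15. Among the ligands, Bmp2 was at 5.32 and 5.95 CPM in MEF and 191 and 203 CPM in CFAE+6 (log2 change 5.13 ± 0.09, adjusted p = 9.1e-28), Bmp7 rose from 1.9 and 1.56 to 116 and 115 CPM, Bmp4 from 67.6 and 59.5 to 186 and 195 CPM and Bmp6 from 2.66 and 3.94 to 24.7 and 24.7 CPM. Gdf6 fell from 15.1 and 14.2 to 6.08 and 8.13 CPM. Among the targets, the inhibitors of differentiation rose: Id1 from 76 and 73 to 338 and 356 CPM, Id2 from 39.6 and 33.5 to 149 and 163 CPM and Id3 from 201 and 194 to 395 and 394 CPM. Msx1, a homeobox target gene of limb and neural crest, was at 2.85 and 1.92 CPM in MEF and 268 and 285 CPM in CFAE+6 (log2 change 6.86 ± 0.10, adjusted p = 1.9e-29), and Msx2 rose from 4.18 and 6.41 to 21 and 20.5 CPM. Id4 fell from 43.5 and 47.1 to 32.2 and 31.6 CPM. Of the secreted antagonists, Grem1, which binds BMPs, fell from 582 and 593 to 111 and 107 CPM (log2 change -2.43 ± 0.06, adjusted p = 3.1e-25), and Fst, follistatin, from 186 and 185 to 85 and 85.6 CPM. The receptor gene Bmpr1b fell from 14.5 and 16 to 2.12 and 1.37 CPM. Several ligands and targets were thus higher and these 2 antagonists lower, but Gdf6, Id4 and Bmpr1b also fell. The list as a whole had no single direction, with a median log2 change of 0.25.

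Contractile and serum response genes were called lower for 29 of 35 tested members and higher for 3, with a median log2 change of -1.04. Acta2, smooth muscle actin (ENSMUSG00000035783, chromosome 19, 34241090 to 34255336), was at 2677 and 2651 CPM in MEF and 597 and 606 CPM in CFAE+6 (log2 change -2.15 ± 0.04, adjusted p = 7.4e-28). Actg2, the enteric smooth muscle actin, was at 170.1 and 161 CPM in MEF and 25.7 and 28.9 CPM in CFAE+6 (log2 change -2.60 ± 0.07, adjusted p = 9.1e-23). Cavin2, a coat protein of caveolae, showed the largest fall of the list, from 378 and 371 to 6.88 and 6.93 CPM (log2 change -5.76 ± 0.10, adjusted p = 1.3e-28). Both replicates of each gene were lower in CFAE+6. Of the targets of YAP, Ankrd1 fell from 55.7 and 53.8 to 7.23 and 7.53 CPM and Amotl2 from 733 and 737 to 80.7 and 78.7 CPM. Myh11, smooth muscle myosin, fell from 43.1 and 51.5 to 27.1 and 25.4 CPM and Cnn1, calponin, from 104 and 105 to 47.2 and 44.8 CPM. Srf, the serum response factor itself, was at 115 and 124 CPM in MEF and 104 and 115 CPM in CFAE+6 and did not pass the test (adjusted p = 0.12), though it did without CFAE+6 replicate 2 (0.033). Myocd, a smooth muscle coactivator of SRF, rose from 0.76 and 0.824 to 2.82 and 3.42 CPM, a low level throughout, and Egr3, an early growth response factor, from 7.32 and 8.61 to 48.3 and 47.8 CPM.

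Collagen genes and the enzymes that process collagen were called lower for 25 of 39 tested members and higher for 11, with a median log2 change of -0.80. The most abundant fibrillar collagens fell. Col1a1, the alpha 1 chain of type I collagen (ENSMUSG00000001506, chromosome 11, 94936224 to 94953042), was at 14456 and 14996 CPM in MEF and 3358 and 3653 CPM in CFAE+6 (log2 change -2.07 ± 0.04, adjusted p = 4.2e-28). Col1a2, its partner chain, was at 7524 and 7665 CPM in MEF and 1399 and 1429 CPM in CFAE+6 (log2 change -2.42 ± 0.03, adjusted p = 1e-30). Col2a1, the cartilage collagen, was at 233 and 262 CPM in MEF and 6.26 and 6.85 CPM in CFAE+6 (log2 change -5.24 ± 0.10, adjusted p = 3.5e-27). In each case both CFAE+6 libraries lay below both MEF libraries. Col5a2, which sets fibril width, fell from 3147 and 3273 to 550.1 and 568 CPM, Col12a1, which links fibrils, from 3713 and 3963 to 457 and 456 CPM, and Col8a1, a short-chain collagen, from 577 and 631 to 30.1 and 30.2 CPM. Col10a1, the collagen of hypertrophic cartilage, was at 11.9 and 13.1 CPM in MEF and had 1 count over CFAE+6, a ratio of 288 (95% counting interval from 51.2 to 11411). Col3a1 fell less, from 2857 and 2889 to 1929 and 1953 CPM (log2 change -0.57 ± 0.03, adjusted p = 5.5e-15). Of the processing enzymes, Loxl1 fell from 691 and 719 to 105 and 109 CPM, and Pcolce, which enhances procollagen cleavage, from 893 and 916 to 185 and 185 CPM. Serpinh1, the collagen chaperone, was at 1802 and 1837 CPM in MEF and 1766 and 1822 CPM in CFAE+6 and did not pass the test (adjusted p = 0.63).

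Some basement membrane and beaded-filament collagens rose. Col18a1, the basement membrane collagen that holds endostatin (ENSMUSG00000001435, chromosome 10, 77052178 to 77166548), was at 141 and 155 CPM in MEF and 2095 and 2221 CPM in CFAE+6 (log2 change 3.86 ± 0.05, adjusted p = 1.7e-31). Col6a1, a chain of the beaded-filament collagen VI, was at 1119 and 1162 CPM in MEF and 4073 and 4299 CPM in CFAE+6 (log2 change 1.88 ± 0.04, adjusted p = 5.5e-27). Its partner chain Col6a2 changed by a like factor, being at 709 and 724 CPM in MEF and 2623 and 2781 CPM in CFAE+6 (log2 change 1.92 ± 0.04, adjusted p = 6.8e-27). Outside these kinds, Col27a1 also rose, from 31.3 and 34.3 to 164 and 170.4 CPM. Col15a1, a relative of Col18a1, rose from 2.85 and 2.84 to 21.2 and 23.8 CPM. The chains of collagen IV, the main basement membrane collagen, did not rise with them: Col4a1 fell from 1473 and 1552 to 607 and 625 CPM and Col4a2 from 1255 and 1311 to 489 and 517 CPM.

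Matrix glycoproteins, proteoglycans and proteases were called lower for 36 of 48 tested members and higher for 10, with a median log2 change of -1.35. Fn1, fibronectin (ENSMUSG00000026193, chromosome 1, 71585520 to 71653200), was at 10534 and 11119 CPM in MEF and 1673 and 1668 CPM in CFAE+6 (log2 change -2.70 ± 0.03, adjusted p = 1.5e-31). Bgn, biglycan, was at 3483 and 3542 CPM in MEF and 125 and 119 CPM in CFAE+6 (log2 change -4.85 ± 0.05, adjusted p = 6.3e-34). Of the fibulins, which sit on elastic fibres and basement membranes, Fbln5 fell from 1019.8 and 1025 to 45 and 42.5 CPM and Fbln2 from 4975 and 5184 to 508 and 516 CPM. Both replicates of each gene were lower in CFAE+6. Fbln1, of the same family, rose from 211 and 226 to 1355 and 1387 CPM (log2 change 2.65 ± 0.04, adjusted p = 9.8e-29). Of the small leucine-rich proteoglycans, Fmod fell from 111 and 101 to 5.73 and 4.37 CPM and Ogn from 121 and 131 to 7.58 and 4.79 CPM, while Lum, a close relative of Fmod, rose from 71.7 and 73.4 to 232 and 200.4 CPM. Among the laminins, which form the basement membrane network, Lama5 fell from 208 and 216 to 10.8 and 10 CPM and Lama1 rose from 7.89 and 9.98 to 88.9 and 83.2 CPM (log2 change 3.27 ± 0.10, adjusted p = 1.1e-21). Among the matrix metalloproteinases, Mmp9 rose from 1.52 and 3.39 to 29.1 and 29.8 CPM, Mmp11 from 66.7 and 65.9 to 571 and 583 CPM and Mmp10 from 2.66 and 3.02 to 17.5 and 18.5 CPM, and Mmp14, at 1057 and 1145 CPM in MEF and 1106 and 1099.7 CPM in CFAE+6, did not pass the test (adjusted p = 0.97). Of their inhibitors, Timp3 fell from 624 and 656 to 113 and 97.2 CPM (21.3% exon overlap) and Timp1 from 349.5 and 336 to 68.9 and 70.2 CPM.

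**Figure D3:**
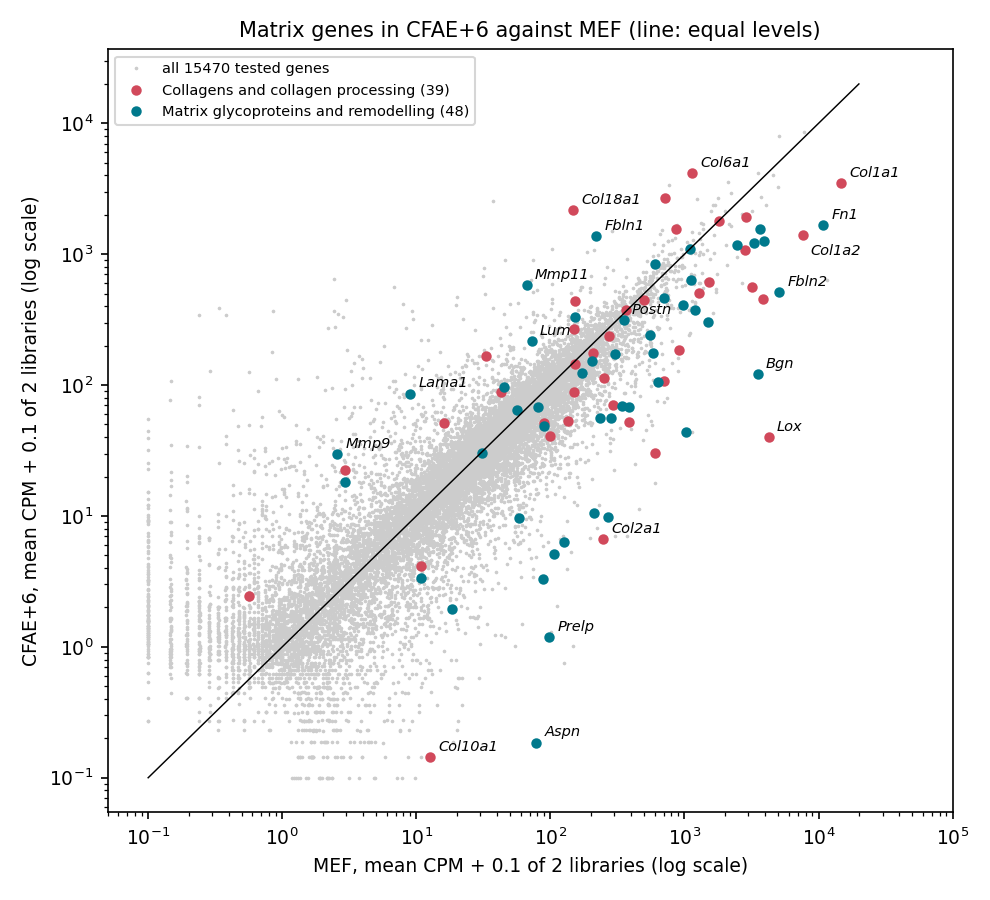
Mean CPM plus 0.1 in MEF (x axis) and in CFAE+6 (y axis), both on log scales, for all 15470 tested genes (grey), 39 collagen and collagen-processing genes (red) and 48 matrix glycoprotein and remodelling genes (teal), with the line of equal levels. Most matrix genes lie below the line, Aspn and Lox furthest among those labelled, while Col18a1, Col6a1, Fbln1, Mmp9 and Lama1 lie above it.

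Genes with at least 300 CPM in 1 group were also ranked by the difference in CPM, which favours long and abundant genes. The 10 that lost most were Col1a1, Thbs1, Fn1, Col1a2, Fbln2, Lox, Bgn, Col12a1, Col5a2 and Tnc, all of them matrix genes. The 10 that gained most were mt-Co1 (from 5038 and 5056 to 8189 and 7758 CPM), Col6a1, Crabp1, Apcdd1, Col18a1, Col6a2, mt-Cytb (from 2132 and 2079.7 to 3679.5 and 3506 CPM), Ctsb, Igfbp3 and Fbln1. Ctsb, the lysosomal protease cathepsin B, rose from 1254 and 1234 to 2602 and 2717 CPM (log2 change 1.10 ± 0.03, adjusted p = 9.4e-22, 12.8% exon overlap with Fdft1). Of 13 mitochondrially encoded genes, 10 were called higher and none lower. Of 32 nuclear genes of the respiratory chain, 13 were higher, 2 lower and 17 not called, with a median log2 change of 0.14, and 4 were lower without CFAE+6 replicate 2. None of the 32 passed a test against a 1.5-fold change.

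Several markers of the labelled cell type were present in every library. Vim, the mesenchymal filament vimentin, was at 3749 and 3747 CPM in MEF and 2638 and 2795 CPM in CFAE+6, Pdgfra, a receptor of mesenchymal cells, at 362 and 359.6 CPM in MEF and 529 and 518 CPM in CFAE+6, and Prrx1, a limb and body-wall mesenchyme factor, at 582 and 583 CPM in MEF and 513 and 480.1 CPM in CFAE+6. Of 28 tested fibroblast markers, 12 were higher and 16 lower, and 3 listed markers had too few counts to be tested. The summed level of the list, which includes Col1a1, was 27750 and 28560 CPM in MEF and 12040 and 12520 CPM in CFAE+6. Twist1, a mesenchymal transcription factor, was at 103 and 103 CPM in MEF and 1045 and 1131 CPM in CFAE+6 (log2 change 3.40 ± 0.05, adjusted p = 3.7e-30), and Thy1 rose from 672 and 691 to 1529.9 and 1540.4 CPM. Pdgfrb fell from 530.5 and 565 to 124 and 119 CPM, Cxcl12 from 415 and 442 to 24.6 and 24.7 CPM and Ly6a, which codes for Sca-1, from 376 and 354 to 8.81 and 7.96 CPM (log2 change -5.44 ± 0.09, adjusted p = 4.2e-29). Of the other mesenchymal transcription factors, Prrx2 rose from 107 and 108 to 225 and 262 CPM and Snai2 from 65.8 and 58.3 to 96.9 and 92.4 CPM. In bulk RNA, fewer cells of a type and less RNA per cell cannot be told apart, here and in all results below.

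Of 29 epithelial genes, 18 had enough counts to be tested, 8 of them higher and 5 lower. With no counts in MEF, 4 of the 29 could not be called lower. Dsp, desmoplakin of desmosomes, was at 16.2 and 18 CPM in MEF and 138 and 143 CPM in CFAE+6 (log2 change 3.04 ± 0.08, adjusted p = 5.1e-24). Of the keratins of simple epithelia, Krt8 rose from 1.52 and 2.2 to 8.46 and 8.47 CPM and Krt18 from 5.23 and 6.5 to 13 and 15.6 CPM. Cdh1, E-cadherin, was at 0.665 and 0.0916 CPM in MEF and 1.85 and 1.37 CPM in CFAE+6 (log2 change 2.10 ± 0.65, adjusted p = 0.0056), a call lost without MEF replicate 2 (adjusted p = 0.14) or CFAE+6 replicate 1 (0.055). Epcam had 1 count over MEF and 2.03 and 0.685 CPM in CFAE+6, a ratio of 28.9 (95% counting interval from 4.81 to 1176). Cdh3, P-cadherin, fell from 87.6 and 89.6 to 4.76 and 6.93 CPM. Grhl2 and Ovol2, regulators of epithelial identity, had no counts in MEF and 2 and 1 counts over CFAE+6.

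Chemical reprogramming of fibroblasts has been described as passing through cells that resemble extraembryonic endoderm. Of 23 genes listed for that lineage, 17 were tested, 9 were higher and 3 lower, with a median log2 change of 1.11. No counts in MEF were held by 6 of the 23, and none of those could be called lower. The summed level of the list was 5711 and 5810 CPM in MEF and 2982 and 3059 CPM in CFAE+6. The 3 lower members, which fibroblasts also express, were Sparc, a matrix-binding glycoprotein, from 3632 and 3639.9 to 1526 and 1587 CPM (log2 change -1.22 ± 0.03, adjusted p = 5.2e-23), Dab2, an endocytic adaptor, from 196 and 205 to 48.5 and 51 CPM (log2 change -2.01 ± 0.07, adjusted p = 2e-21), and Col4a1, given above. Among the higher members, Sox17, a transcription factor of endoderm, was at 0 in MEF and 6.79 and 11.2 CPM in CFAE+6, at least 64.6-fold higher. Sall4 was at 0 in MEF and 8.55 and 8.47 CPM in CFAE+6, at least 60.8-fold higher. Gata6 rose from 12.8 and 16.9 to 30.3 and 34.2 CPM (log2 change 1.11 ± 0.12, adjusted p = 6.2e-09), and Sox7 from 2 and 1.83 to 36.6 and 36.6 CPM (log2 change 4.26 ± 0.16, adjusted p = 9.3e-20). Gata4 was near 1 CPM throughout, at 1.14 and 1.47 CPM in MEF and 1.59 and 0.856 CPM in CFAE+6, and did not pass the test (adjusted p = 0.87). The secreted endoderm products Afp and Ttr had no counts in the 4 libraries. Of 27 pluripotency genes, 9 were tested, 4 higher and 2 lower. In MEF 15 of the 27 had no counts and could not be called lower. Pou5f1, Zfp42, Lin28a and Dppa3 had no counts in the 4 libraries, and Nanog had 5 counts over MEF and none over CFAE+6. A count of 0 over the 2 CFAE+6 libraries allows a mean of up to 0.13 CPM, covering counting error only. Sox2 was at 1.62 and 2.02 CPM in MEF and 8.29 and 8.3 CPM in CFAE+6 (log2 change 2.19 ± 0.27, adjusted p = 4.4e-08), Tet1, a DNA demethylase, at 3.8 and 3.76 CPM in MEF and 18.2 and 14.7 CPM in CFAE+6 (log2 change 2.12 ± 0.19, adjusted p = 7.7e-11), and Nr5a2, a nuclear receptor, at 0 and 0.366 CPM in MEF and 6.7 and 6.76 CPM in CFAE+6 (log2 change 5.17 ± 0.53, adjusted p = 9e-10). Klf4, a reprogramming factor that fibroblasts also express, fell from 154 and 161 to 11.9 and 12.2 CPM (log2 change -3.71 ± 0.11, adjusted p = 2.8e-22), and Klf2 from 37.3 and 39.5 to 1.23 and 1.03 CPM.

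The neuronal genes tested were mostly higher. Of 24 tested neuronal and secretory genes, 19 were higher and 3 lower, with a median log2 change of 3.23, or 3.14 with genes at 0 in MEF set to their bounds. Of the 31 listed, 5 had no counts in MEF and could not be called lower. Nefm, the medium neurofilament chain, was at 2.85 and 4.4 CPM in MEF and 170.4 and 163 CPM in CFAE+6. Nefl, the light chain, was at 0.475 and 0.641 CPM in MEF and 88.3 and 91.2 CPM in CFAE+6. Their exons overlap each other over 19.2% and 32.8% of their lengths, so reads shared between them cannot be assigned. Syn1, a synaptic vesicle protein, rose from 5.42 and 6.96 to 100 and 93.1 CPM (log2 change 3.96 ± 0.10, adjusted p = 1.2e-23), and Gap43, a growth-cone protein, from 87.9 and 87.9 to 339.6 and 344 CPM. Vgf, a secreted neuropeptide precursor, was at 7.13 and 7.6 CPM in MEF and 62.8 and 71.6 CPM in CFAE+6 (log2 change 3.19 ± 0.11, adjusted p = 2.1e-20). These genes were higher in both CFAE+6 libraries. Gad1, which makes GABA, was at 0 in MEF and at 7.85 and 5.91 CPM in CFAE+6, at least 49-fold higher, and Snap25, of the vesicle fusion machinery, at 0 and at 3.17 and 3.17 CPM, at least 22.7-fold higher. Map2, the dendritic microtubule protein, went against them, falling from 15.9 and 18 to 3 and 2.82 CPM, and Ncam1 fell from 186 and 194 to 51.7 and 49.9 CPM. Dcx and Rbfox3, which mark newborn and mature neurons, had too few counts to be tested.

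Among 22 tested transcription factors and markers of neural crest and neural tissue, 12 were higher and 6 lower, with a median log2 change of 0.52. Of the 33 listed, 8 had no counts in MEF and could not be called lower. Tfap2c, of the AP-2 family, had 3 counts over MEF and 68.4 and 73.4 CPM in CFAE+6, a ratio of 507 (95% counting interval from 173 to 2462). Sox11, a factor of neural progenitors, was at 34.7 and 39.9 CPM in MEF and 393 and 382 CPM in CFAE+6 (log2 change 3.38 ± 0.06, adjusted p = 2.4e-27). Ngfr, the p75 receptor of neural crest, rose from 14.9 and 12.2 to 56.4 and 52.6 CPM. Sox9 fell from 33.6 and 37.5 to 7.49 and 8.99 CPM and Ets1 from 97.9 and 103 to 30.6 and 25.7 CPM. Of the neural crest factors, Sox10 was called higher, from 3.99 and 4.4 to 5.99 and 6.76 CPM (log2 change 0.60 ± 0.23, adjusted p = 0.025), but not with DESeq2 (adjusted p = 0.11) nor without MEF replicate 1 (0.1), MEF replicate 2 (0.052) or CFAE+6 replicate 2 (0.13). Foxd3 was at 1.71 and 2.66 CPM in MEF and 1.85 and 2.4 CPM in CFAE+6 without passing the test (adjusted p = 0.93), while Pax3 and Pax7 had too few counts to be tested.

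Markers of other cells that such cultures can hold changed with the medium. Of 18 tested macrophage genes, 17 were lower and none higher, and the summed level of the 20 listed genes was 272.8 and 273.7 CPM in MEF and 36.3 and 33.9 CPM in CFAE+6. Lyz2, lysozyme, fell from 125 and 123 to 7.58 and 6.25 CPM (log2 change -4.17 ± 0.11, adjusted p = 1.5e-23), Csf1r, the macrophage growth factor receptor, from 10.7 and 11.6 to 1.76 and 2.23 CPM, and C1qa, of complement, from 6.37 and 8.34 to 0.353 and 0.171 CPM. Cx3cr1 had no counts in CFAE+6, and Ptprc, the pan-leukocyte marker CD45, had 2 counts there against 3.33 and 2.84 CPM in MEF. Of 16 tested mesothelial genes, 9 were lower and 4 higher. Upk3b, a uroplakin of mesothelium, was at 18.8 and 17.5 CPM in MEF and 0.881 and 0.514 CPM in CFAE+6. Upk1b, another, was at 12.8 and 8.79 CPM in MEF and 0.0881 and 0 CPM in CFAE+6, with 1 count left. Lrrn4 was at 8.27 and 7.24 CPM in MEF and 0 in CFAE+6, at least 59.4-fold lower. Wt1, at 6.94 and 4.31 CPM in MEF and 5.38 and 4.45 CPM in CFAE+6, did not pass the test (adjusted p = 0.54). Skeletal muscle genes were lower for 9 of 15 tested members and higher for 2 (1 without CFAE+6 replicate 1), adipocyte genes lower for 9 of 13 and higher for 1, and cartilage and bone genes lower for 7 of 13 and higher for 5. Of the bone genes, Sp7, a transcription factor of osteoblasts, rose from 1.24 and 2.2 to 39 and 41.1 CPM, and Ibsp, bone sialoprotein, from 0.475 and 0.0916 to 35.8 and 34.9 CPM, while Acan, the cartilage proteoglycan aggrecan, fell from 11.3 and 11.9 to 0.617 and 0.77 CPM. Endothelial genes were higher for 4 of 10 tested members and lower for 5, or lower for 3 without MEF replicate 1 and with DESeq2. Esam, an adhesion molecule, rose from 1.14 and 1.19 to 38.3 and 36.1 CPM, and Flt1, a VEGF receptor, fell from 109.7 and 123 to 14.9 and 18.3 CPM.

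**Figure D4:**
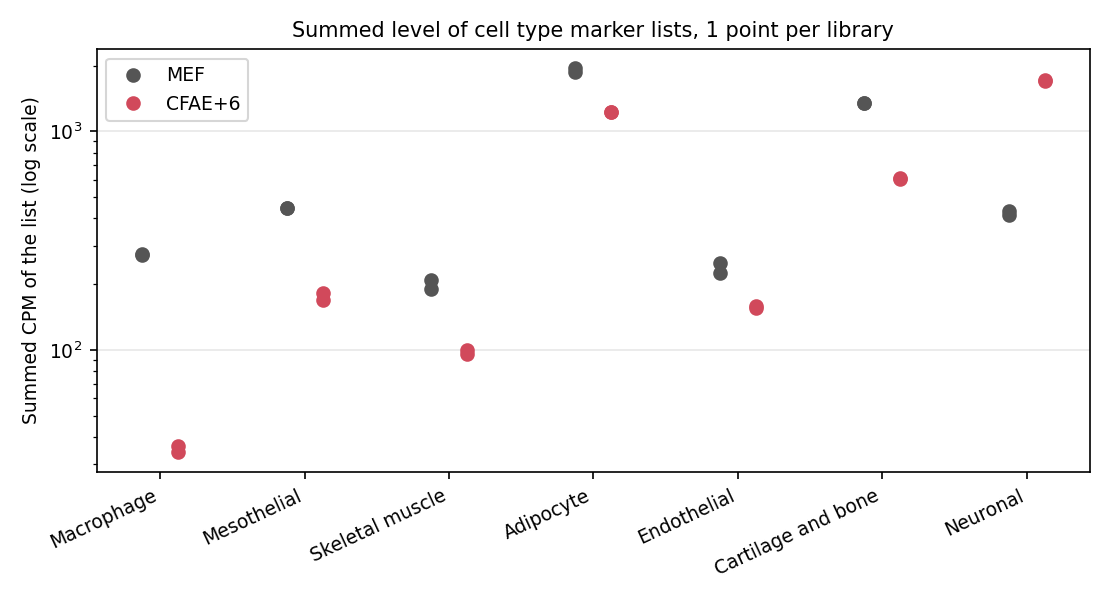
Summed CPM of 7 lists of cell type genes on a log axis, with 1 point for each of the 2 MEF libraries (grey) and the 2 CFAE+6 libraries (red). The macrophage sum shows the widest gap, 272.8 and 273.7 CPM against 36.3 and 33.9 CPM, and the neuronal sum is the only one of the 7 that is higher in CFAE+6.

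Interferon-stimulated genes were called lower for 27 of 33 tested members and higher for 2, with a median log2 change of -1.89. Isg15, a ubiquitin-like antiviral protein, fell from 3.23 and 4.95 to 0.176 and 0.342 CPM, and Irf7, the interferon regulatory factor, from 4.56 and 4.21 to 0.881 and 1.11 CPM. Ddx58, which codes for the RNA sensor RIG-I, was at 55.4 and 53.2 CPM in MEF and 8.02 and 8.3 CPM in CFAE+6 (log2 change -2.73 ± 0.14, adjusted p = 6.2e-17), and Irgm1, an immunity-related GTPase, fell from 36.5 and 39.6 to 5.47 and 4.79 CPM. Antigen presentation genes fell too, B2m from 339.9 and 314 to 126 and 119 CPM (log2 change -1.42 ± 0.06, adjusted p = 6e-18) and H2-K1 from 33 and 34.8 to 15.2 and 17 CPM, the latter uncertain because close copies share reads. Ifit2, in contrast, rose from 20.8 and 21.3 to 30.9 and 26.6 CPM, and Tap1 from 31.7 and 32.2 to 46.9 and 50.6 CPM. Of the 40 listed genes, 7 had too few counts to be tested.

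Inflammatory and chemokine genes were called lower for 22 of 34 tested members and higher for 5, with a median log2 change of -1.09. The count of higher members was 3 without MEF replicate 2, without CFAE+6 replicate 1 and with DESeq2. Il1rl1, the receptor of interleukin-33, was at 457 and 456 CPM in MEF and 10.6 and 12 CPM in CFAE+6 (log2 change -5.34 ± 0.08, adjusted p = 5.8e-30). Cxcl14, a chemokine of stromal cells, fell from 559 and 563 to 53.6 and 52.4 CPM, Csf1, the macrophage growth factor, from 373 and 382 to 64.2 and 67.1 CPM, and Vcam1, an adhesion molecule, from 141 and 127 to 8.81 and 9.16 CPM. Of the chemokines, Ccl2, which attracts monocytes, fell from 121 and 117 to 32.1 and 24.8 CPM, and Cxcl1, which attracts neutrophils, from 11.8 and 10.8 to 3.79 and 2.05 CPM. Ptgs2, inducible cyclooxygenase, fell from 229 and 227 to 74.4 and 61.4 CPM, whereas Ptges, the enzyme that follows it in making prostaglandin E, rose from 63.2 and 50.8 to 410.2 and 433 CPM (log2 change 2.89 ± 0.07, adjusted p = 3.4e-25). Nfkbia, the inhibitor of NF-kappaB, rose from 25.8 and 25.5 to 59.3 and 60.9 CPM. Il6, at 3.61 and 3.76 CPM in MEF and 4.05 and 3 CPM in CFAE+6, did not pass the test (adjusted p = 0.86). The macrophage sums given above moved in the same direction as the interferon and inflammatory lists. Their part in these results was not tested.

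Genes of DNA replication were nearly all higher. Of 32 genes for DNA replication, 29 were higher and none lower, with a median log2 change of 0.78. The helicase subunit Mcm3 was at 48.4 and 53.6 CPM in MEF and 114 and 115 CPM in CFAE+6 (log2 change 1.17 ± 0.07, adjusted p = 2.1e-15), the clamp Pcna at 47.3 and 52.7 CPM in MEF and 108 and 110.3 CPM in CFAE+6 (log2 change 1.12 ± 0.07, adjusted p = 1e-14), and Cdt1, which loads the helicase, rose from 26.9 and 19.8 to 57.6 and 62.8 CPM. Both replicates were higher for each. Of 31 mitosis genes, 23 were higher, 1 lower and 7 not called, with a smaller median of 0.52. A test against a 1.5-fold change left 9 higher. The 1 lower call was lost in that test, with DESeq2, with upper-quartile scaling and with the 2 groups alone. It was also lost without MEF replicate 1, MEF replicate 2 or CFAE+6 replicate 2. Ube2c, which helps to degrade cyclins, rose from 42.3 and 40.9 to 83.7 and 87.2 CPM (22.8% exon overlap), and Aurka, a spindle kinase, from 25.3 and 24 to 46.8 and 46.7 CPM. Mki67, the proliferation marker Ki-67, was at 97.6 and 109 CPM in MEF and 99.4 and 96.8 CPM in CFAE+6 and did not pass the test (adjusted p = 0.31), nor did Cenpf, at 31.6 and 34 CPM in MEF and 36.1 and 32.6 CPM in CFAE+6 (adjusted p = 0.54). Among 32 genes of G1 control and p53 targets, 16 were higher and 11 lower. Ccnd1, cyclin D1, rose from 254 and 270.2 to 797 and 791 CPM and Ccnd2 fell from 1078 and 1147 to 738 and 677 CPM. The inhibitor gene Cdkn2a, which codes for p16 and p19 ARF, rose from 40.4 and 40.4 to 171 and 166 CPM (log2 change 2.06 ± 0.07, adjusted p = 2.3e-21), Cdkn2b from 84.2 and 80.9 to 173 and 187 CPM, and Cdkn1b, which codes for p27, fell from 42.1 and 39.4 to 18.1 and 19.8 CPM. Cdkn1a, the p53 target p21, was at 708 and 691 CPM in MEF and 789 and 828 CPM in CFAE+6 (log2 change 0.21 ± 0.04, adjusted p = 7.5e-05). Pmaip1, the death-promoting protein Noxa, rose from 52.6 and 52.1 to 193 and 183 CPM, and Bbc3, which codes for Puma, fell from 41.7 and 49.2 to 19 and 17.1 CPM.

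Replication-dependent histone genes moved the other way. Of 13 with enough counts, out of 36 listed, 11 were lower, none was higher (1 without MEF replicate 1) and the median log2 change was -2.40. The linker histone gene Hist1h1c was at 128 and 125 CPM in MEF and 14 and 13.7 CPM in CFAE+6 (log2 change -3.19 ± 0.09, adjusted p = 1.5e-22), and Hist1h2bc fell from 42.9 and 42.1 to 13 and 12.8 CPM. Many of these genes are close copies of each other, and the mRNA of most lacks the poly(A) tail that RNA selection can use, so their values are uncertain. Chromatin enzymes were called higher for 19 of 31 tested members and lower for 4, with a median log2 change of 0.57. The count of lower members was 1 without MEF replicate 1, 2 without MEF replicate 2 or CFAE+6 replicate 2, and 1 with DESeq2. Suv39h1, a histone H3 lysine methyltransferase of heterochromatin, was at 26.4 and 25.7 CPM in MEF and 152 and 157 CPM in CFAE+6 (log2 change 2.57 ± 0.07, adjusted p = 3.1e-23), and Ezh2, of Polycomb, rose from 28 and 23.4 to 79.3 and 80.2 CPM (log2 change 1.63 ± 0.08, adjusted p = 1.7e-16). Dnmt1, the maintenance DNA methyltransferase, rose from 141 and 141 to 229 and 224 CPM. Cdk8 was at 70.7 and 65.2 CPM in MEF and 68.9 and 65.4 CPM in CFAE+6 and did not pass the test (adjusted p = 0.86), and its paralogue Cdk19 fell from 26.9 and 26.3 to 17.9 and 18.1 CPM.

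Cholesterol genes were called lower for 31 of 32 tested members and higher for 1, with a median log2 change of -1.17. Along the pathway, Hmgcs1, which makes HMG-CoA, fell from 344 and 329 to 173 and 173 CPM (log2 change -0.96 ± 0.05, adjusted p = 3.9e-16), and Sqle, squalene epoxidase, from 272 and 275 to 142 and 147 CPM (log2 change -0.92 ± 0.06, adjusted p = 6.8e-15). Both genes were lower in each CFAE+6 library. Srebf2, the transcription factor that drives the pathway, fell from 429 and 469.6 to 290.3 and 299 CPM, and Insig1, which retains it in the endoplasmic reticulum, from 179.5 and 172 to 64.4 and 66.1 CPM. The liver X receptor targets Abca1 and Abcg1, which export cholesterol and usually move against synthesis genes, fell as well, Abca1 from 62.2 and 69.1 to 49.4 and 46.1 CPM and Abcg1 from 8.84 and 10.2 to 1.32 and 1.71 CPM. Scap, the escort of SREBP, was the 1 gene that rose, from 125 and 128 to 162 and 176 CPM. The promoter of Hmgcs1 (chr13:119690101-119690350, plus strand, the 250 bases before its start) is shown because it alone among 32 windows of 23 listed genes holds the sterol regulatory element, searched as TCACNCCAC on both strands; 1.24% of all windows hold it. Capitals mark the match, which begins 137 bases before the start and is likewise not a measured site of binding.
Hmgcs1: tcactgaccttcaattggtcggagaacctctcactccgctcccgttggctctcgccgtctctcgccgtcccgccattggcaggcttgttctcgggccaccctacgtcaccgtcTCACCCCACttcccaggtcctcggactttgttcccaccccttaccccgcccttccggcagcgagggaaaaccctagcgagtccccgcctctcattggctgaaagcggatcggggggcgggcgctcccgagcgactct
Fatty acid genes were lower for 13 of 22 tested members and higher for 3, with Scd1, stearoyl-CoA desaturase, falling from 625 and 635 to 270.4 and 262 CPM and Fasn from 883 and 922 to 743 and 738 CPM, while Pdk4, which holds glucose carbon out of the mitochondrion, rose from 12.4 and 9.34 to 33.1 and 27.3 CPM. Glycolysis and hypoxia genes were lower for 17 of 29 and higher for 6. Slc2a1, the glucose transporter GLUT1, fell from 126 and 121 to 47.2 and 51.9 CPM, whereas Slc2a3, GLUT3, rose from 11.3 and 11.2 to 38.5 and 36.3 CPM and Hk2, hexokinase, from 54.6 and 57.1 to 141 and 138 CPM.

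Of 38 tested growth factor genes and feedback regulators, 14 were higher and 20 lower. Of the mesenchymal ligands for epithelial FGF receptors, Fgf10 fell from 46.9 and 45 to 2.82 and 2.65 CPM and Fgf7 from 50.7 and 48.2 to 6.61 and 4.62 CPM. Hgf fell from 9.31 and 9.43 to 1.06 and 1.11 CPM and Vegfd from 59.9 and 59.2 to 3.7 and 4.96 CPM. These 4 ligand genes fell, whereas ETS factors that are targets of FGF and ERK signalling rose, Etv4 from 20.4 and 23 to 131 and 142 CPM (log2 change 2.65 ± 0.08, adjusted p = 1.6e-22) and Etv5 from 46.9 and 46.1 to 285 and 275 CPM (log2 change 2.59 ± 0.06, adjusted p = 2.1e-25). Of the feedback inhibitors of that route, Spred1 rose from 116 and 119.7 to 376 and 346 CPM and Spry4 from 51.2 and 51.4 to 125 and 123 CPM, and Spry1 fell from 75.8 and 82.5 to 32 and 31.4 CPM (24.4% exon overlap). Hedgehog and Notch genes were higher for 12 of 17 tested members and lower for 3, or lower for 5 without CFAE+6 replicate 2. Of the Hedgehog targets, Gli1 rose from 0.38 and 0.733 to 7.4 and 8.39 CPM and Ptch1 from 17.1 and 21.2 to 68.8 and 65.9 CPM. The Notch target Hey1 was at 0.285 and 0.366 CPM in MEF and 16 and 18.3 CPM in CFAE+6 (log2 change 5.71 ± 0.33, adjusted p = 1.9e-15), while Hes1, another, fell from 83.3 and 79.3 to 19.7 and 22.9 CPM, as did the ligand Jag1, from 62.5 and 65.5 to 26.6 and 27.3 CPM. Stress genes were lower for 15 of 24 tested members and higher for 8. Of the targets of ATF4, which responds to amino acid shortage, Trib3 fell from 45.2 and 46.3 to 1.15 and 1.03 CPM (log2 change -5.40 ± 0.20, adjusted p = 4.3e-20) and Chac1 from 29.4 and 25.6 to 2.2 and 0.942 CPM, whereas Slc7a11, the cystine transporter, rose from 8.17 and 8.06 to 133 and 109.9 CPM (log2 change 3.90 ± 0.10, adjusted p = 1.8e-23). Of 20 housekeeping genes, 9 were higher and 8 lower, with a median log2 change of 0.05. B2m and Gusb, often used as references, fell by more than 1 log2 unit, Gusb from 105 and 108 to 50.2 and 55.6 CPM.

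The last comparison asked how the cocktail with E-616452 differed from the cocktail with A-83-01, both of which block the TGF-beta type I receptor. Direct testing of CFAE+6 against CFAE+8 called 14.3% of all tested genes higher and 12.3% lower in CFAE+6, 26.6% in all, but larger differences lay on 1 side: 691 genes were higher and 171 lower by at least 1 log2 unit. Both cocktails are set against the same MEF libraries, so their changes from MEF are not independent and are given side by side only. The doses of E-616452 and A-83-01 are not in the labels, so potency and dose cannot be told apart. Of 35 tested contractile genes, 21 were higher in CFAE+6 than in CFAE+8 and 6 lower. Acta2 was at 597 and 606 CPM in CFAE+6 and 65.5 and 63.3 in CFAE+8 (log2 difference 3.22 ± 0.04, adjusted p = 3.5e-29). Actg2 was at 25.7 and 28.9 CPM against 1.37 and 1.36 (log2 difference 4.33 ± 0.17, adjusted p = 4.8e-18), and Myh11 at 27.1 and 25.4 against 1.79 and 1.44 (log2 difference 4.02 ± 0.17, adjusted p = 7e-17). The CFAE+6 libraries lay between those of MEF and those of CFAE+8 for all 3 genes. Postn, which fell little in CFAE+6 against MEF, was at 31.2 and 33.3 CPM in CFAE+8 (log2 difference 3.29 ± 0.06, adjusted p = 3.4e-26). Prss23, a secreted serine protease, was at 232 and 228 CPM in MEF and low in both cocktails, 11.7 and 12.3 against 1.28 and 1.36 CPM (log2 difference 3.19 ± 0.19, adjusted p = 1.4e-13, 22.9% exon overlap). The TGF-beta target list was split, 17 of 39 tested members higher in CFAE+6 and 13 lower. Fn1 was lower in CFAE+6, at 1673 and 1668 against 2410.0 and 2420.2 CPM (log2 difference -0.53 ± 0.03, adjusted p = 7e-14).

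Several genes that were silent or low in MEF reached higher levels with E-616452. Calb1 was at 23.7 and 27.1 CPM in CFAE+6 and 1.02 and 0.763 in CFAE+8 (log2 difference 4.83 ± 0.23, adjusted p = 1.3e-15), and Vgf at 62.8 and 71.6 against 6.23 and 4.92 (log2 difference 3.59 ± 0.12, adjusted p = 1.1e-19). Both CFAE+8 values of Vgf lay below the 7.13 and 7.6 CPM of MEF. Fezf2 was at 10.1 and 12.3 CPM in CFAE+8 (log2 difference 1.81 ± 0.12, adjusted p = 3.5e-12), and Sfrp5 at 0.598 and 1.78 (log2 difference 3.34 ± 0.32, adjusted p = 2.6e-09). Both genes were at 0 in MEF. Of the 24 tested neuronal genes, 17 were higher in CFAE+6 than in CFAE+8 and 1 lower. Stra6 went the other way, with 753 and 738 CPM in CFAE+8 (log2 difference -0.94 ± 0.05, adjusted p = 4e-15), as did Axin2 by a smaller margin, at 412 and 403 CPM (log2 difference -0.16 ± 0.05, adjusted p = 0.014), a call lost without CFAE+6 replicate 1 (adjusted p = 0.15), CFAE+8 replicate 1 (0.15) or CFAE+8 replicate 2 (0.063). Inflammatory genes were more often lower than higher with E-616452, 17 against 4 of 34 tested members. Cxcl1 was at 3.79 and 2.05 CPM in CFAE+6 and 10.2 and 11.8 in CFAE+8 (log2 difference -1.91 ± 0.23, adjusted p = 1.7e-07), and Cxcl5 at 3.35 and 3.51 against 14 and 15 (log2 difference -2.08 ± 0.19, adjusted p = 9.4e-10). Ccl2 was at 32.1 and 24.8 against 91.8 and 87.1 CPM (log2 difference -1.65 ± 0.09, adjusted p = 5.2e-15), with MEF above both. Of 18 tested macrophage genes, none was higher in CFAE+6 than in CFAE+8. The 2 that were lower are near the 12.3% called lower over all tested genes and do not set the list apart. Steap4, a metalloreductase induced by inflammation, was at 1.15 and 0.942 CPM in CFAE+6 and 12.7 and 13.1 in CFAE+8 (log2 difference -3.63 ± 0.29, adjusted p = 5.1e-11). Serpina3g, a serine protease inhibitor, was at 10.3 and 9.67 against 30 and 31.5 CPM, and Mmp10, higher than MEF in both, at 17.5 and 18.5 against 49.8 and 48.5 CPM (log2 difference -1.45 ± 0.11, adjusted p = 2.9e-11). Replication genes were lower in CFAE+6 than in CFAE+8 for 13 of 32 and mitosis genes for 15 of 31, with none higher in either list. Mki67 was at 99.4 and 96.8 against 178 and 172 CPM (log2 difference -0.83 ± 0.06, adjusted p = 8.9e-12).

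**Figure D5:**
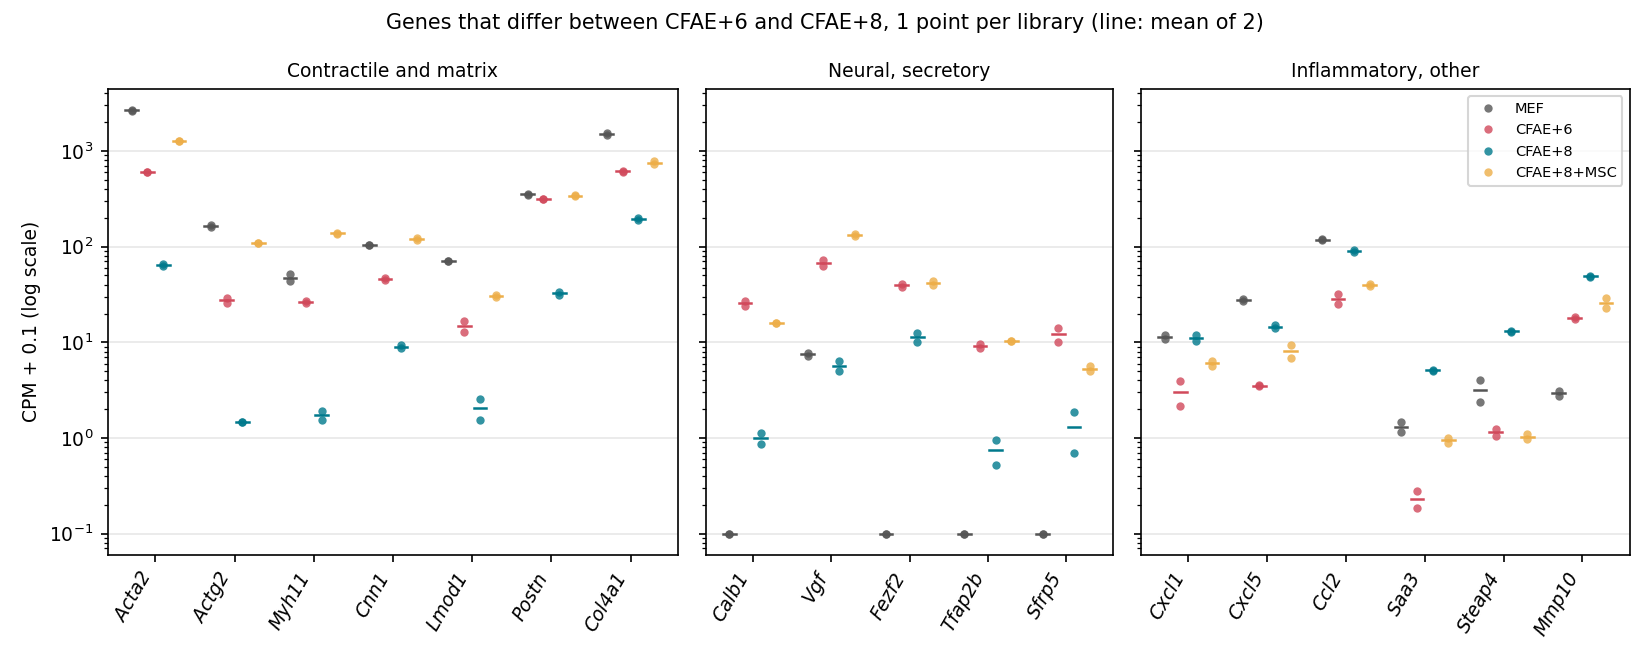
CPM plus 0.1 on a log axis for 18 genes in all 8 libraries, 2 per group: MEF (grey), CFAE+6 (red), CFAE+8 (blue) and CFAE+8+MSC (yellow), with a line at the mean of each pair. In CFAE+6 the contractile and neural genes lie above CFAE+8 and the inflammatory genes below it, and for all 18 genes the CFAE+6 mean lies nearer on this log scale to that of CFAE+8+MSC than to that of CFAE+8; the genes were chosen because CFAE+6 and CFAE+8 differ in them.

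Against CFAE+8+MSC, which holds A-83-01 and the CDK8 and CDK19 inhibitor, 4.27% of tested genes were higher in CFAE+6 and 6.21% lower, 10.5% in all. Calb1 was at 15.8 and 15.9 CPM in CFAE+8+MSC, Fezf2 at 39.2 and 43.9 and Cxcl1 at 6.32 and 5.52. Acta2, at 1278 and 1259 CPM, and Myh11, at 137 and 139.7, were higher in CFAE+8+MSC than in CFAE+6 (log2 difference -1.08 ± 0.04, adjusted p = 3e-18, and log2 difference -2.40 ± 0.08, adjusted p = 3e-18). Stra6 was at 515 and 475 CPM there (log2 difference -0.35 ± 0.05, adjusted p = 9.7e-06). For Acta2 and Myh11 the order of the 3 cocktails was therefore CFAE+8, CFAE+6 and CFAE+8+MSC from low to high, with no overlap between the pairs of libraries.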

How the data were processed

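Per the labels' protocols, libraries were built with NEBNext Ultra reagents from total RNA isolated with EasyPure. The deposited table holds unnormalized read counts of each gene in 8 libraries, which the authors made with featureCounts of Subread on mm10, per the submitters' processing notes, which also name DESeq2. Not given in the sources used here are the aligner, the strand setting and the annotation release. From these counts, edgeR 4.0.16 in R 4.3.3 tested 15470 of 54532 genes, those kept by its expression filter (filterByExpr), which hold 99.85% of all counts. Libraries were scaled with TMM, and the quasi-likelihood test was fitted on 4 group means over all 8 libraries, with 4 residual degrees of freedom and a Benjamini-Hochberg threshold of 0.05. The script was tested on simulated data with far fewer changed genes than were called here. That test cannot check the scaling or the error rate for so many changes.

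Gene positions are those of the deposited table. Exon overlap between genes was computed from GENCODE M21, where 53585 of 54532 identifiers had the same start and end. Promoter windows are RefSeq's for GRCm38.p6.

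The groups and gene lists were chosen with earlier results of these data known. Genes were named by rule: the 15 largest rises and 15 largest falls against MEF among called genes of at least 10 CPM with no overlap between the groups, passing over predicted genes, pseudogenes and small RNA genes; the key members of each list with its 3 largest rises and 3 largest falls; the 8 largest rises and 8 largest falls against CFAE+8; and, from 300 CPM upwards, the 10 largest CPM differences each way. The rule picked 491 genes, of which 251 are printed; some list members are not reported here. Of 305 genes named, 54 fall outside the rule and were chosen after their values were seen. Alternatives were other scalings, a DESeq2 1.42.0 Wald test, other filters, a test against a 1.5-fold change, a replicate block and leaving out each library. Counting intervals cover counting error only. Groups of 2 libraries allow no check for a library that stands apart within its group.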

Additional observations from a re-analysis of the deposited data

How the results depend on the processing

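Against MEF, 4890 genes were higher and 4876 lower in CFAE+6. A test against a 1.5-fold change left 2148 and 2432. Under the other scalings, tools and filters run and with the 2 groups alone, the counts lay within 1.5 times of these. The balance of higher and lower calls depended on the scaling, and upper-quartile scaling gave 5238 higher and 4589 lower. The median log2 change over all genes was then 0.0611, against 0.0184 with TMM. Leaving out 1 library gave 4335 to 4589 higher and 4444 to 4535 lower, and 758 to 783 list members called against 794. Of the 78 counts of list members called higher or lower, each library left out moved 3 or 4 by over 1.5 times, as given beside those lists, and the DESeq2 Wald test moved 4. Upper-quartile scaling and the 2 groups alone moved 1 each, the lower count for mitosis. The 1.5-fold test moved 26. Higher members went from 23 to 9 for mitosis, 16 to 4 for G1 control and p53 targets, 13 to 0 for the respiratory chain, 10 to 5 for mitochondrially encoded genes, 19 to 11 for chromatin enzymes, 14 to 8 for growth factor genes, 9 to 3 for Hox genes, 8 to 4 for stress genes, 8 to 4 for compound targets and 9 to 0 for housekeeping genes. Lower members went from 15 to 9 for BMP, 9 to 5 for skeletal muscle, 13 to 6 for fatty acid, 17 to 11 for glycolysis, 17 to 9 for Hox, 11 to 6 for G1 control and p53, 8 to 2 for housekeeping and 7 to 2 for compound targets. The other 8 moved counts started at 5 or fewer. Against CFAE+8, 2215 were higher and 1901 lower. The DESeq2 Wald test gave 1569 and 1201, and the 1.5-fold test 562 and 132, which moved the share of higher calls from 53.8% to 81.0%. Leaving out 1 library gave 1536 to 1873 higher and 1184 to 1500 lower, with 1260 lower without CFAE+8 replicate 1 and 1184 without CFAE+8 replicate 2. The cause was not tested beyond the smaller number of samples. No called direction of the named genes reversed under these alternatives, but some calls were lost. The 1.5-fold test lost the call of 22 named genes against MEF and 112 against CFAE+8. The DESeq2 Wald test lost 2 and 17. Leaving out 1 library lost 1 to 4 against MEF and 17 to 31 against CFAE+8. No alternative gained more than 1 call in either comparison. Where a library was left out, the lone library of its group was assumed to vary like the other groups.

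Over all tested genes, same-numbered libraries did not deviate together, with correlations of their deviations between -0.021 and 0.0512. A pairing that touched only some genes would not show in these values, so the numbers are used here only as names. With the replicate block, 4902 genes were higher and 4863 lower than in MEF, 2221 and 1903 against CFAE+8, and 794 list members were called.

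At totals of 11036764 to 11913143 counts, genes near 0 are limited by depth, and their folds are bounds or carry wide counting intervals.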
